A study of Mus musculus with 8 samples.

Results

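The 10 genes described here encode ligands, receptors, an extracellular inhibitor and SMAD proteins of the TGF-β and myostatin pathway. They were taken from a fixed list of names, chosen with earlier results of these data known. They are 10 of the 21951 protein-coding genes of the annotation. In or within 100 kb of them lay 68 of the 22292 WFS1 ChIP-seq peaks of wildtype C2C12 cells, a mouse myoblast line, in the proliferating stage. WFS1 spans the membrane of the endoplasmic reticulum and, in part, the inner nuclear membrane. The peaks came from 2 libraries of wildtype cells, prepared with an antibody against WFS1 after crosslinking with DSG and formaldehyde and sheared by 30 or 36 sonication cycles. Both libraries derive from 1 immunoprecipitation, a part of which was sonicated for 6 further cycles. The other 6 of the 8 libraries, which are the inputs and the libraries of WFS1 knockout cells expressing WFS1-FlagTag, were not analysed here.

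Each deposited list gives the chromosome, start and end of every peak and no height, read count or q-value. The 30-cycle list held 18283 peaks and the 36-cycle list 12674, and both were joined wherever peaks overlapped, giving the combined peaks. The depth behind the peaks is unknown, each condition has 1 library, and no test between conditions was possible. Values below therefore describe these 2 libraries, and each interval reflects only how many peaks were counted. Peak coordinates carry no expression, so the labelled cell type could not be checked against marker genes. Coordinates are on GRCm38 and counted from 1, with genes from GENCODE mouse release 21.

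TGF-β ligands and myostatin bind a type II receptor kinase at the cell surface, which activates a type I receptor, which in turn phosphorylates SMAD2 and SMAD3. These enter the nucleus with SMAD4 and bind DNA, often next to other factors such as AP-1. Myostatin limits the growth of skeletal muscle, TGF-β restrains the differentiation of myoblasts, and follistatin binds and blocks myostatin and activins. SMAD6 and SMAD7 are inhibitory members of the family that act back on the receptors.

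The sequences below show the letters at the centres of the peaks that the later sections refer to, 200 bases each, read 5′ to 3′ on the forward strand of GRCm38. Capitals mark matches to the AP-1 sequence TGACTCA or TGAGTCA, the E-box CAGCTG, the SMAD sequence CAGACA or TGTCTG, and the RUNX sequence AACCACA or TGTGGTT. The first is the peak of both lists nearest to the Smad3 start site, and the next 4 are further Smad3 peaks with an E-box, chosen after their values were seen.
Smad3, chr9:63743962-63744161: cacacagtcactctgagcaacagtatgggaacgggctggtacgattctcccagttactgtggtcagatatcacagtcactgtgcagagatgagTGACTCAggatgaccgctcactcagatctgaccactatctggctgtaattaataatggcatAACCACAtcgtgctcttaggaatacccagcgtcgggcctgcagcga
Smad3, chr9:63742585-63742784: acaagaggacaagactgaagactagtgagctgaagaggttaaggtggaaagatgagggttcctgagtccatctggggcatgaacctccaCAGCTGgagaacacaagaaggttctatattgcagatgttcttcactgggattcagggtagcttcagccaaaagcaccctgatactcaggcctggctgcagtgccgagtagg
Smad3, chr9:63737547-63737746: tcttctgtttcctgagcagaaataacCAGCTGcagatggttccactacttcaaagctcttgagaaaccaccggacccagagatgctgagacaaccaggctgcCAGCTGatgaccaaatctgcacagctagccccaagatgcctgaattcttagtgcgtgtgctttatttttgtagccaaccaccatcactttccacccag
Smad3, chr9:63678241-63678440: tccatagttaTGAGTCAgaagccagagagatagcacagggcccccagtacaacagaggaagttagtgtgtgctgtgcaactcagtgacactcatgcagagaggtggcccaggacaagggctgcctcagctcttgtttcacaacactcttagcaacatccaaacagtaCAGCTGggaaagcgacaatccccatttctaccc
Smad3, chr9:63674682-63674881: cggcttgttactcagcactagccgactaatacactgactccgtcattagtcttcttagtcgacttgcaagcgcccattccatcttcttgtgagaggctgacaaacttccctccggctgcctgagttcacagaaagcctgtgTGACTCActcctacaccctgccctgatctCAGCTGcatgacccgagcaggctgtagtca
The 63674682 and 63678241 windows hold an AP-1 sequence and an E-box each, and the 63737547 window holds 2 E-boxes. In the 63743962 window, nearest of these to the Smad3 start site, an AP-1 and a RUNX sequence are present and no E-box is.

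Of the other genes, the windows of Tgfb3, Tgfbr1 and Fst are from the peak of both lists nearest to each start site, and that of Tgfbr2 is the peak just upstream of its start site, chosen after its value was seen. They show that the centres of peaks of this group also lie on sequence without any of these matches, and on a simple repeat.
Tgfb3, chr12:86128992-86129191: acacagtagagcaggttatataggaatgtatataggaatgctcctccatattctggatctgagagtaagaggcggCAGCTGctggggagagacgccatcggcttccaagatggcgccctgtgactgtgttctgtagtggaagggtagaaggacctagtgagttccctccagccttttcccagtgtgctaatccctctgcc
Tgfbr1, chr4:47310040-47310239: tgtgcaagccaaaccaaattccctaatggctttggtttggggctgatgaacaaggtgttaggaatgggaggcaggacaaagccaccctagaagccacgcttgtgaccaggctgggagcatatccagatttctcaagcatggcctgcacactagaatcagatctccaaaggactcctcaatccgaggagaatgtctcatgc
Tgfbr2, chr9:116175676-116175875: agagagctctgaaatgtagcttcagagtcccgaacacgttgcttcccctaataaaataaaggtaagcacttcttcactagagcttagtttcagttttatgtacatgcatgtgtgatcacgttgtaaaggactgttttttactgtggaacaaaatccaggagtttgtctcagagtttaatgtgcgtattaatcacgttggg
Fst, chr13:114394018-114394217: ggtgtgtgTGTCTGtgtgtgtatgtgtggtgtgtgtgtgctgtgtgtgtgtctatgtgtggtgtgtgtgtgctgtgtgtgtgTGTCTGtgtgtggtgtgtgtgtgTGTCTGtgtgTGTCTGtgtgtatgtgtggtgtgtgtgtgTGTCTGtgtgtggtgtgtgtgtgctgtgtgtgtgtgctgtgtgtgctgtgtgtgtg
The Tgfb3 window holds 1 E-box, and those of Tgfbr1 and Tgfbr2 hold none of the 4 sequences. Outside these windows, the same Tgfbr1 peak holds 2 E-boxes and the same Tgfbr2 peak 1 SMAD sequence. In the Fst window, 5 matches to TGTCTG fall within a run of TG dinucleotides.

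WFS1 peaks lay in or within 100 kb of 9 of the 10 genes, against 73.4% of all protein-coding genes, and Mstn had none. The same 9 genes had at least 1 peak found in both lists, where 47.8% of all protein-coding genes did. The number of peaks per gene ranged from 0 at Mstn to 20 at Smad3, with a median of 6 against 2 over all protein-coding genes. The 10 genes are longer, with a median length of 45.0 kb against 17.4 kb, so that more bases were searched for each. Per Mb of gene and flanks, the median was 25.2 peaks over the 10 genes and 9.35 over all protein-coding genes. The windows of the 10 genes together covered 2.49 Mb and held 27.3 peaks per Mb, or 22.0 without Smad3, whereas the genome as a whole held 8.18.

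**Figure D1:**
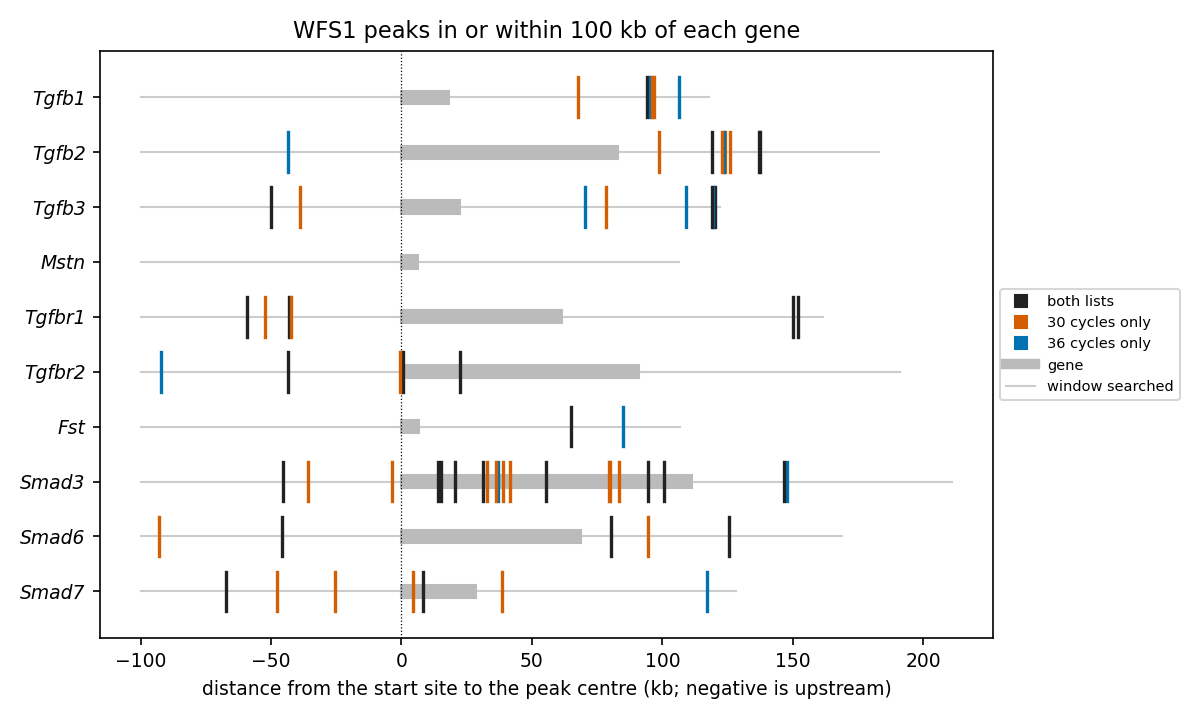
Positions of the combined WFS1 peaks by gene, with the distance from the start site to the peak centre in kb on the horizontal axis and 1 row per gene. Vertical bars are peaks, coloured by the list in which they were called, grey boxes are the genes and thin lines the windows searched. Smad3 has 15 peaks inside the gene, Tgfbr2 has 2 peaks beside its start site, and the row of Mstn is empty.

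Most of the 68 peaks lay away from the genes. Inside a gene of the group lay 19 peaks, of which 15 were in Smad3, 2 in Tgfbr2 and 2 in Smad7, so that 3 of 10 genes had a peak inside, against 24.7% of all protein-coding genes. A further 18 peaks were upstream of the start site and 31 beyond the end of the gene. For 47 of the 68 peaks the nearest protein-coding start site was that of the gene itself, and for the remaining 21 it belonged to a neighbour. Another protein-coding gene was overlapped by 21 peaks, and 28 overlapped no protein-coding gene. Peaks near a gene can thus lie in the body of another gene, and the lists do not tell to which gene a peak relates.

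Peaks at start sites were found at 1 of the 10 genes. With the peak centre within 1 kb, Tgfbr2 had 2 peaks, and 12.5% of all protein-coding genes had at least 1. The median distance from the start site to the nearest peak was 42.8 kb over the 10 genes and 41.7 kb over all protein-coding genes. Counting the start sites of all protein-coding genes, 4 of the 68 peaks (5.88%, 95% Wilson interval 2.31 to 14.2) were centred within 1 kb of one, compared with 12.8% of the combined peaks.

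**Figure D2:**
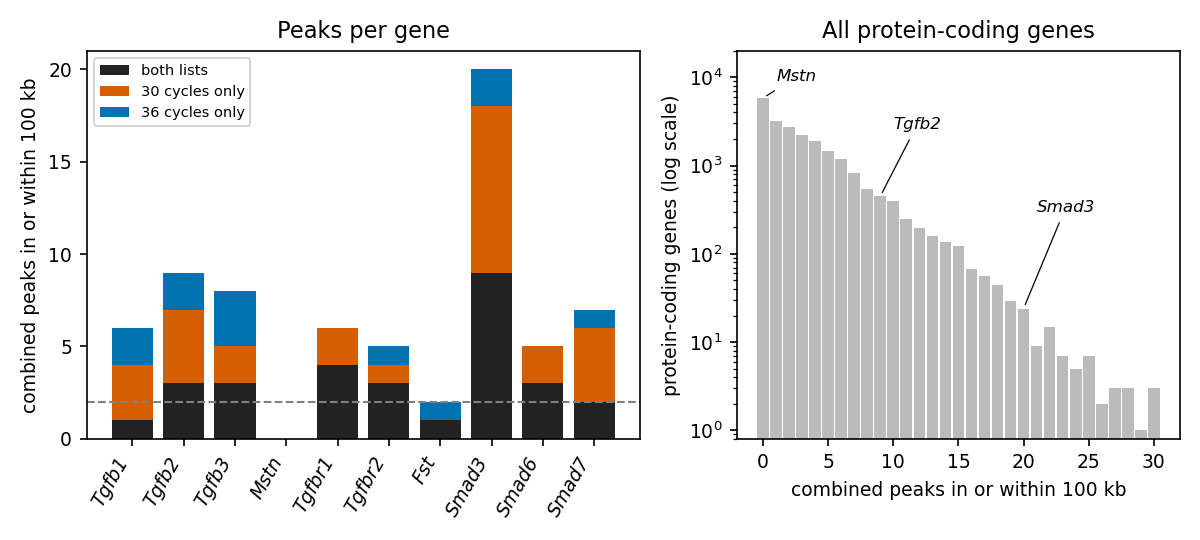
Left, number of combined peaks in or within 100 kb of each gene, split by the list in which they were called, with the median of all protein-coding genes (2 peaks) as a dashed line. Right, number of protein-coding genes on a log scale by their number of peaks, drawn up to 30 peaks although the highest count is 113. Mstn falls among the 26.6% of genes with 0 peaks, and 0.415% of genes have 20 peaks or more, as Smad3 does.

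Of the ligand genes, Mstn, which encodes myostatin, stood apart by the lack of peaks. Mstn (ENSMUSG00000026100) lies on the forward strand at chr1:53061640-53068079 and is 6.44 kb long. Neither list had a peak within 100 kb of it, as was the case for 5834 protein-coding genes (26.6%). The nearest combined peak was 252 kb downstream of its start site, at chr1:53313681-53314090, 410 bp wide and from the 30-cycle list alone. The nearest peak called after 36 cycles was 591 kb away, on the upstream side. At this unknown depth, the lack of a call does not show that WFS1 is absent from the locus.

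Tgfb1, Tgfb2 and Tgfb3, which encode the 3 TGF-β ligands, had 6, 9 and 8 peaks, none of them inside the gene. In each, the larger number lay beyond the end of the gene.

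All 6 peaks of Tgfb1 (ENSMUSG00000002603, chr7:25687002-25705077, forward strand) were downstream of it and nearer to the start site of another gene. The nearest, 67.5 kb from the Tgfb1 start site at chr7:25754481-25754761, was 281 bp wide, was called after 30 cycles only, and was centred 0.136 kb from the start site of Hnrnpul1. The remaining 5, between 93.6 and 106 kb from the Tgfb1 start site, were nearest to Axl, which encodes a receptor tyrosine kinase. Of these, 4 lay inside Axl within 3.54 kb, outside its exons. The widest of them, at chr7:25780562-25782064, measured 1503 bp and was the one peak of the 6 found in both lists, with the 36-cycle call covering 402 bp of it.

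Tgfb2 (ENSMUSG00000039239, chr1:186622792-186705989, reverse strand) had a group of 8 peaks beyond its end and 1 peak upstream. The group spanned 39.3 kb, from 15.4 to 54.1 kb past the end of the gene, and none of its peaks overlapped a protein-coding gene. Tgfb2 had the nearest protein-coding start site for each of them. In this group, 3 peaks were found in both lists, 4 after 30 cycles only and 1 after 36 cycles only. The widest, at chr1:186586121-186587618, was 1498 bp wide and found in both lists, 118 kb from the start site. The upstream peak, at chr1:186749408-186749605, was the nearest at 43.4 kb, but it was centred 0.149 kb from the start site of Rrp15, was 198 bp wide and came from the 36-cycle list. Among peaks called after 30 cycles, the nearest to the Tgfb2 start site was therefore 98.6 kb away. No Tgfb2 peak held an AP-1 sequence, an E-box or a SMAD sequence in its central 200 bp. Over their whole length some Tgfb2 peaks did hold these sequences, and the widest held 1 E-box and 1 SMAD sequence.

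The 8 peaks of Tgfb3 (ENSMUSG00000021253, chr12:86056745-86079041, reverse strand) lay within 2 neighbouring genes and overlapped no exon. Inside Ttll5 were 6 peaks, 47.9 to 97.6 kb past the end of Tgfb3. Upstream, inside Ift43, were 2 peaks, at 38.9 and 49.7 kb from the Tgfb3 start site. The nearer of these, at chr12:86117922-86118267, was 346 bp wide and called after 30 cycles only. The farther, at chr12:86128753-86129430, was 678 bp wide, was found in both lists, and holds the E-box of the Tgfb3 window printed above. The widest Tgfb3 peak, at chr12:85959826-85960545, measured 720 bp, was found in both lists and had 2 SMAD sequences in its central 200 bp. By list, 3 of the 8 peaks were called after 36 cycles only, the highest such number among the 10 genes.

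The receptor genes differed in where their peaks lay. Tgfbr2 encodes the type II receptor, which binds the ligand, and Tgfbr1 the type I receptor, which phosphorylates the SMADs. Tgfbr2 had peaks at its start site, and the nearest peak of Tgfbr1 was 42.1 kb away.

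At Tgfbr2 (ENSMUSG00000032440, chr9:116084293-116175360, reverse strand), 2 peaks flanked the start site at 116175360 with a gap of 249 bp between them. The one inside the gene, at chr9:116174656-116175243, began 117 bp downstream of the start site, overlapped an exon with untranslated and coding bases, and was found in both lists. The 30-cycle call of this peak spanned 391 bp and its 36-cycle call 335 bp. A further annotated transcript start, at 116175265, also lies in the gap. The peak on the upstream side, at chr9:116175493-116176058, began 133 bp from the start site, was 566 bp wide, and was called after 30 cycles only. They differed in composition, with a GC content of 71.3% and 10.4 CpG per 100 bases downstream, against 47.2% and 2.12 upstream, where the median of all combined peaks was 47.1% and 1.17. A share of 5.79% of protein-coding genes had a peak as near to the start site as 117 bp or nearer. A peak of both lists was centred within 1 kb of the start site in 2.91% of protein-coding genes.

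Further peaks of Tgfbr2 lay in an intron and upstream. The intronic peak, at chr9:116152807-116153275, was 22.1 kb from the start site, 469 bp wide and found in both lists. The widest, at chr9:116218432-116219147, measured 716 bp, was found in both lists, lay 43.1 kb upstream, and overlapped an exon of the transcript Gm31410. The last, called after 36 cycles only, was 195 bp wide, lay 92.2 kb upstream and was the one Tgfbr2 peak with an AP-1 sequence in its central 200 bp. Over its whole length, the intronic peak held 1 as well.

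Tgfbr1 (ENSMUSG00000007613, chr4:47353222-47414931, forward strand) had 4 peaks upstream and 2 beyond its end, with the largest median width of the 10 genes, 657.5 bp. The 4 upstream peaks, from 42.1 to 58.9 kb from the start site, lay inside Col15a1, a collagen gene. The nearest, at chr4:47310610-47311159, was 550 bp wide and called after 30 cycles only, and a gap of 90 bp separated it from the peak of both lists whose centre is printed above. Both overlapped an exon of Col15a1. Beyond the end of Tgfbr1, both peaks were found in both lists and were nearest to Sec61b. The wider of them, at chr4:47504635-47505474, was 840 bp wide, the widest of the gene, and held an AP-1 sequence in its central 200 bp.

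Fst, which encodes follistatin, had 2 peaks, the fewest of the 9 genes with a peak and equal to the median of all protein-coding genes. Fst (ENSMUSG00000021765, chr13:114452290-114458951, reverse strand) is 6.66 kb long. Both peaks lay beyond its end and were nearer to the start site of Ndufs4, a gene of respiratory complex I. The nearer and wider peak, at chr13:114393955-114394281, was 327 bp wide and found in both lists, 64.7 kb from the Fst start site and 5.86 kb from that of Ndufs4. All of its bases (100%) are annotated as repeats, against a median of 11.5% over all combined peaks. How well reads can be placed in such a run was not tested. The other peak, 84.8 kb from the start site, was 246 bp wide, was called after 36 cycles only, and was 64.2% repeats.

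Smad3, which encodes the SMAD that TGF-β and myostatin receptors phosphorylate, held more peaks than any other gene of the group. Smad3 (ENSMUSG00000032402) extends over 111 kb on the reverse strand at chr9:63646767-63757994, and its start site is at 63757994. Of its 20 peaks, 15 lay inside the gene, 3 upstream and 2 beyond its end. Together they made up 29.4% of the 68 peaks. Among all protein-coding genes, 30 genes (0.137%) had 15 or more peaks inside, Smad3 included. With 13.5 peaks per 100 kb of its length, Smad3 had the highest value of the 2492 protein-coding genes of at least 100 kb, followed by Mtss1 with 12.8, where the median was 0.533. With a minimum length of 50 kb, 14 of 5007 genes had a higher value, and with 20 kb, 69 of 10159. These limits of length were chosen after the values were seen.

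**Figure D3:**
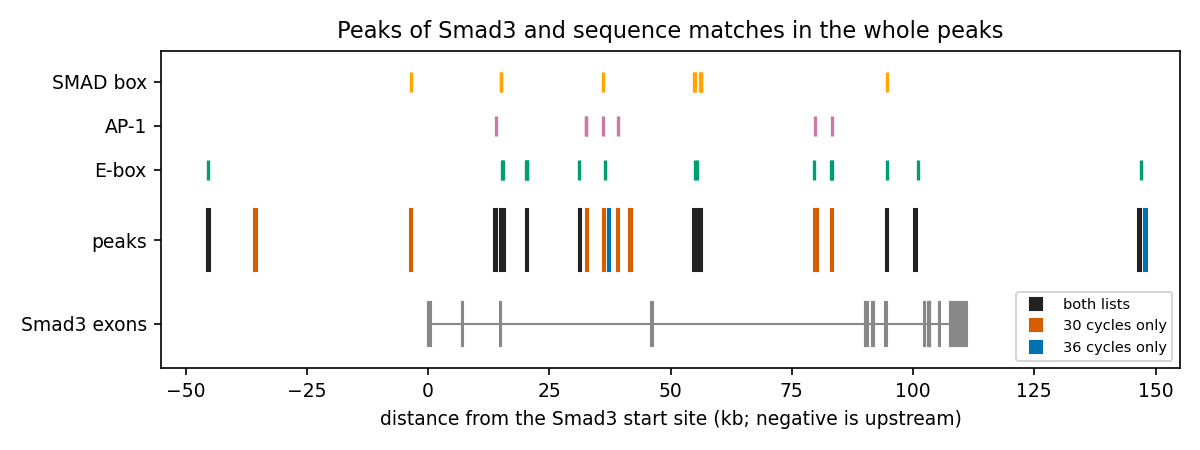
The Smad3 locus by distance from its start site in kb, drawn in the direction of transcription. The lowest row shows the exons of all annotated transcripts, the next the 20 peaks coloured by list, and the upper rows the E-box, AP-1 and SMAD sequences found in the whole peaks. Between 13.6 and 54.7 kb lie 10 of the 15 peaks inside the gene, and no peak covers the start site.

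The 15 peaks inside Smad3 fell into a group of 10 between 13.6 and 54.7 kb from the start site and a group of 5 between 79.5 and 100 kb. The first group spanned 42.8 kb, with 5 peaks found in both lists, 4 after 30 cycles only and 1 after 36 cycles only. The second spanned 21.4 kb, with 2 peaks found in both lists and 3 after 30 cycles only. Its peaks were nearer to the start site of Aagab, which adjoins Smad3 beyond its end, than to that of Smad3. Apart from 1 peak that overlapped an exon, they were intronic, and GC content ranged from 47.3% to 59.1%.

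The widest peak of Smad3 and of all 10 genes, at chr9:63701580-63703291, measured 1712 bp, 54.7 kb downstream of the start site. It was called over its whole length after 30 cycles and over 920 bp after 36 cycles. It had no match in its central 200 bp, but over its full length it held 2 E-boxes and 5 SMAD sequences. The other peaks inside the gene that were found in both lists were narrower, from 423 to 903 bp.

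Nearest to the start site among these was chr9:63743727-63744397, at 13.6 kb and 671 bp wide, with calls of 671 bp after 30 cycles and 457 bp after 36. Next to it, at 14.9 kb and 903 bp wide, was chr9:63742234-63743136, with calls of 668 and 850 bp. Between this pair, in a gap of 590 bp, lies the start of another annotated Smad3 transcript, at 63743265, which is 14.7 kb into the gene. The upstream edge of one peak was 129 bp from it, and the other peak began 462 bp on its upstream side. This pair of peaks thus flanked a transcript start as the pair at Tgfbr2 did, whereas the first start site of Smad3 had no peak within 1 kb.

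Further into the gene, chr9:63737384-63737910, 527 bp wide, was 20.1 kb from the start site and chr9:63726452-63726969, 518 bp wide, was 31.0 kb from it. The first had calls of 527 and 378 bp and the second calls of 462 and 481 bp after 30 and 36 cycles. In the group nearer to the end of the gene, chr9:63663192-63663614 was 423 bp wide, and chr9:63657124-63657695 was 572 bp wide. Their 30-cycle calls of 293 and 330 bp and 36-cycle calls of 386 and 427 bp were offset within the joined peaks, so that the 36-cycle call was the wider one in both.

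Outside the gene, the peak nearest to the Smad3 start site was 3.48 kb upstream, at chr9:63761476-63761768, 293 bp wide and without a 36-cycle call. The nearest peak called after 36 cycles was 13.8 kb downstream. Of the other upstream peaks, at 35.6 and 45.1 kb, the farther was found in both lists. The 2 peaks beyond the end lay inside Aagab.

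Smad6 and Smad7, which encode the inhibitory SMADs, had 5 and 7 peaks. Smad6 (ENSMUSG00000036867, chr9:63953076-64022059, reverse strand) had none inside the gene, as was the case for 49.2% of protein-coding genes of at least 50 kb. It is 69.0 kb long and lies on the same chromosome as Smad3. The windows of both genes overlap by 4919 bp, and no peak is shared between them. The nearest Smad6 peak was 45.7 kb upstream, at chr9:64067715-64068235, 521 bp wide and found in both lists. The widest, at chr9:63927263-63927974, was 712 bp wide, was called after 30 cycles only, overlapped an exon of the transcript Gm36033 and lay 94.1 kb downstream of the start site. Of the 5 peaks, 3 were found in both lists and 2 after 30 cycles only, and none held an AP-1 sequence, an E-box, a SMAD or a RUNX sequence in its central 200 bp. Over whole peaks, the nearest held 1 E-box and 1 SMAD sequence, and the peak 79.9 kb downstream of the start site held 1 AP-1 sequence.

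Smad7 (ENSMUSG00000025880, chr18:75367529-75395935, forward strand, 28.4 kb long) had 2 peaks inside the gene. The nearest to the start site, at chr18:75371828-75372195, was 4.30 kb downstream, 368 bp wide and called after 30 cycles only. The other, at chr18:75375344-75375877, was 534 bp wide, 7.82 kb downstream, found in both lists and overlapped an exon. It lay 430 bp downstream of another annotated transcript start, at 75374914. Upstream were 3 peaks at 25.5, 47.7 and 67.2 kb, of which the farthest was found in both lists. The widest, at chr18:75405800-75406487, measured 688 bp, was called after 30 cycles only, and 69.3% of its bases are repeats. An AP-1 sequence was present in the central 200 bp of 3 of the 7 peaks, and also outside that window in the peak of both lists inside the gene. None of the 7 held an E-box.

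Across the 68 peaks, 29 were found in both lists, 27 after 30 cycles only and 12 after 36 cycles only. The share in both lists was 42.6% (31.6 to 54.5), against 35.4% of all combined peaks, which lies within the interval. The share was 52.6% (31.7 to 72.7) among the 19 peaks inside the genes and 38.8% (26.4 to 52.8) among the 49 outside, and these intervals overlap. In the 30-cycle list, the number of peaks per gene ran from 1 at Fst to 18 at Smad3, and in the 36-cycle list from 2 at Fst to 11 at Smad3, with 0 at Mstn in each. Smad3 had the most peaks in either list.

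**Figure D4:**
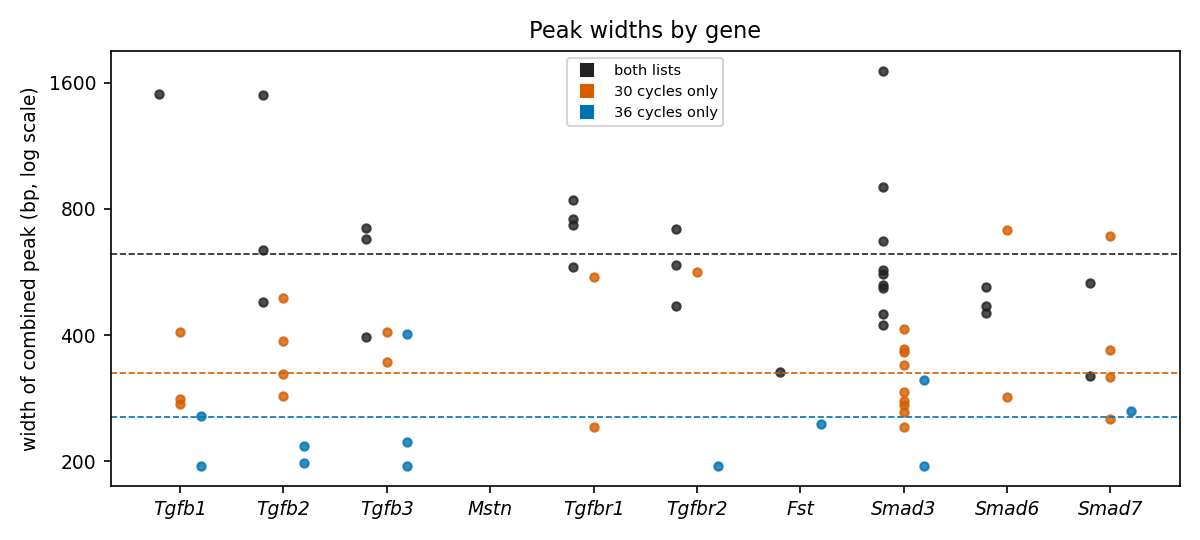
Width of each combined peak in bp on a log scale, by gene and coloured by list. Dashed lines are the medians of all combined peaks of each kind, 623, 324 and 255 bp. Peaks found in both lists are mostly the wider ones, and 3 of them, at Tgfb1, Tgfb2 and Smad3, measure 1498 bp or more.

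The median width of the 68 peaks was 404 bp, with a range of 195 to 1712 bp, beside 376 bp for all combined peaks. Peaks found in both lists had a median of 572 bp, those after 30 cycles only 339 bp and those after 36 cycles only 220 bp, and the medians of all combined peaks of each kind were 623, 324 and 255 bp. The order of the 3 kinds was thus the same as in the genome. Since a joined peak spans the calls of both lists, part of the greater width of shared peaks follows from the joining.

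Part of the peaks lay close together. Another combined peak lay within 1 kb for 26 of the 68 (38.2%, 27.6 to 50.1), against 26.6% of all combined peaks. Both peaks of a close pair can count here, so the peaks are not independent and the interval is too narrow. The median GC content was 50.3%, with 1.41 CpG per 100 bases, against 47.1% and 1.17. The 3 peaks with the most CpG were those at the start sites of Tgfbr2, Hnrnpul1 and Rrp15, with 10.4, 10.3 and 6.57 per 100 bases. Repeats made up over 50% of the bases in 5 of the 68 peaks, 2 of them at Fst, and in 2322 of the 22292 combined peaks.

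**Figure D5:**
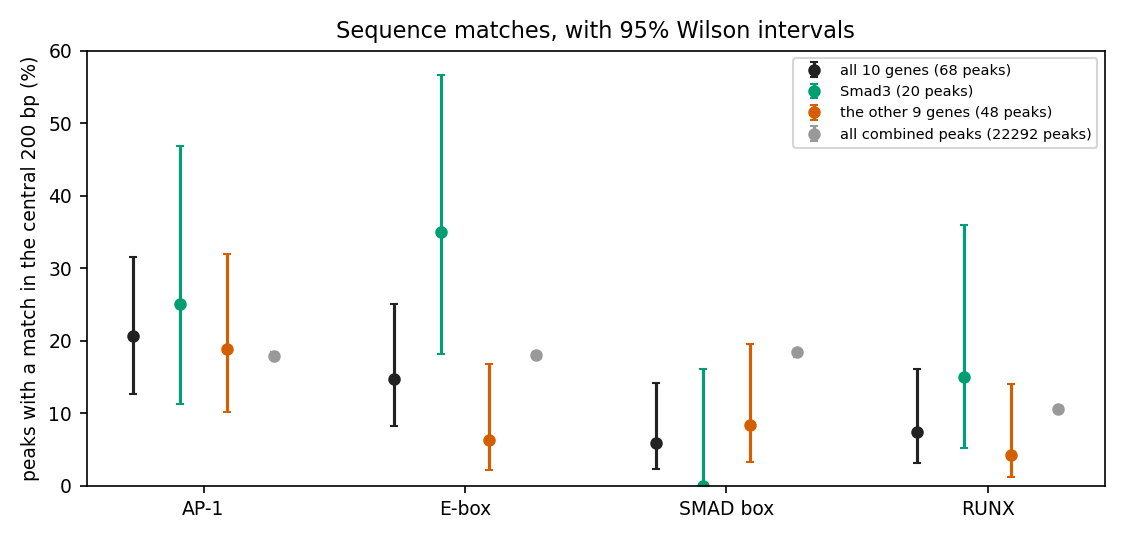
Share of peaks with a match in the central 200 bp, in percent with 95% Wilson intervals, for AP-1, E-box, SMAD and RUNX sequences. Points are all 68 peaks of the 10 genes, the 20 peaks of Smad3, the 48 peaks of the other 9 genes, and all 22292 combined peaks. In this window the E-box share is 35.0% at Smad3 and 6.25% at the other 9 genes (55% and 27.1% over whole peaks), and the SMAD share is 5.88% for the 10 genes and 18.4% for all peaks (29.4% and 35.9% over whole peaks).

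The E-box CAGCTG, which is its own reverse complement and is bound by bHLH factors such as MyoD, was found near the centre (in the 200 bp around it) of 10 of the 68 peaks. This share, 14.7% (8.19 to 25.0), compares with 4005 of the 22292 combined peaks, or 18%. Of these 10 peaks, 7 belonged to Smad3, 2 to Tgfb3 and 1 to Tgfb1. The share was 35.0% (18.1 to 56.7) of the 20 Smad3 peaks and 6.25% (2.15 to 16.8) of the 48 peaks of the other 9 genes, with intervals that do not overlap. Over whole peaks the gap was smaller, with an E-box in 11 of the 20 (55%, 34.2 to 74.2) and 13 of the 48 (27.1%, 16.6 to 41.0), and these intervals overlap. Of all combined peaks, 32.8% held one over their whole length. This split was made after the values were seen and was not tested, as peaks of 1 gene are neighbours and not independent. Inside Smad3, 6 of the 7 E-box peaks were intronic or exonic, and the seventh was the peak 45.1 kb upstream.

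The AP-1 sequence TGACTCA or its reverse complement was present in the central 200 bp of 14 of the 68 peaks, 20.6% (12.7 to 31.6), beside 17.9% of all combined peaks. Over whole peaks the shares were 33.8% and 31.2%. Smad3 had 5 of these peaks, Tgfb1 and Smad7 3 each, Tgfbr1 2 and Tgfbr2 1. The 3 of Tgfb1 were all nearest to Axl. In Smad3, 2 peaks held both an AP-1 sequence and an E-box, those of the last pair of Smad3 windows printed above.

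SMAD proteins recognise a short box, CAGAC, searched here with 1 more base as CAGACA or TGTCTG. It was found in the central 200 bp of 4 of the 68 peaks, 5.88% (2.31 to 14.2), against 18.4% of all combined peaks. With the 30-cycle list alone the share was 10.7%, for which no share over all peaks of that list is given here. These 4 were a peak each of Tgfb1, Tgfb3, Fst and Smad7, and no Smad3 peak had it there. Over whole peaks, the share was 29.4% (19.9 to 41.1), an interval that holds the 35.9% of all combined peaks. The RUNX sequence AACCACA or TGTGGTT occurred in the central 200 bp of 5 peaks, 7.35% (3.18 to 16.1), against 10.6%, and 3 of the 5 were at Smad3. A match says only that these letters are present in the window.

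Of 53 other genes of TGF-β, activin and BMP signalling, all were found in the annotation, and 46 (86.8%) had a combined peak in or within 100 kb, where 73.4% of protein-coding genes did. A peak of both lists was near 36 of them (67.9%), against 47.8% of protein-coding genes, and 15 (28.3%) had a peak centred within 1 kb of the start site, against 12.5% of protein-coding genes. The median was 6 peaks, as for the 10 genes. No such list was tested. Its genes were chosen by hand for their known roles, with earlier results of these data known, so the shares are not independent support.

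By role, the median ran from 2 peaks for ligand genes to 8 for intracellular regulators. Of 9 further ligand genes 5 had a peak near, and Bmp2, Bmp4, Bmp6 and Bmp7 had none, as Mstn had none. Gdf11, the closest relative of myostatin, had 13 peaks, of which 1 was inside the gene and 5 were found in both lists. The nearest, 0.317 kb from its start site, was called after 30 cycles only. Of 10 further receptor genes 9 had a peak, the exception being Acvr1c. Acvr1 and Acvr2a, which encode a type I and a type II receptor, each had a peak of both lists centred within 1 kb of the start site, 457 and 335 bp wide. In both, as in Tgfbr2, this peak lay downstream of the start site, inside the gene. Acvr2b, a main receptor of myostatin, had 1 peak, 76.2 kb away.

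Among the 5 other SMAD genes the median was 3 peaks, with a range of 1 to 4, so that none came near the 20 of Smad3. Smad2, whose protein is activated by the same receptors as SMAD3, had 1 peak, which was 76.3 kb upstream of its start site. Of 13 genes of extracellular inhibitors and latency proteins, 12 had a peak and Chrd had none. Ltbp3, whose product binds latent TGF-β, had 48 peaks, of which 1 was inside the gene, and Ltbp1 had 16, of which 12 were inside its 387 kb. The lists do not tell to which gene the peaks outside Ltbp3 relate.

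Of 9 intracellular regulators, 8 had a peak and Bambi had none. Tgif1, a repressor of SMAD-driven transcription, had 17 peaks, with a peak of both lists 1783 bp wide that began 0.026 kb inside its start site. Ski, which encodes a corepressor of SMADs, had 14 peaks, of which 6 were inside the gene. All 7 target genes had at least 5 peaks, where 27.3% of all protein-coding genes did. At Ccn2, which encodes a matricellular protein, a peak of both lists covered the start site and was 750 bp wide. At Klf10, a gene induced early by TGF-β, a peak of 1195 bp did so. Of the 10 genes, none had a combined peak that covered its start site. A peak 117 bp from the start site or nearer was found at 5.79% of all protein-coding genes. With peaks up to 500 bp apart joined, a peak covered the Tgfbr2 start site.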

How the data were processed

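WFS1 ChIP-seq was performed by the authors in C2C12 myoblasts. Reads were aligned by the authors with NextGenMap to GRCm38 and filtered on mapping quality by samtools. MACS2 then called peaks in each library on its own. Which control was used in peak calling is not given in the sources used here. The deposited lists give peak coordinates and no signal. Reads per library are unknown, so values are not normalized for depth, and peaks called at a greater depth may be more numerous.

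Here, both lists were joined as by bedtools merge (checked to be equal for all 22292 peaks). A peak counted for a gene when it overlapped the gene or the 100 kb on either side by at least 1 bp. Distances run from the start site (the 5′ end of the gene) to the nearest edge of the peak. Nearest start sites of other genes and classes within 1 kb use the peak centre. Sequences were searched in the 200 bp around each centre, on both strands. Positions use GENCODE mouse release 21, while the study names a later Ensembl release, and sequence is from the RefSeq copy of GRCm38.

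With 1 library per condition, nothing was tested, and shares have 95% Wilson intervals (scipy). Named with coordinates are, for each gene, the nearest and the widest peak and peaks of both lists inside it or within 10 kb of its start site, and any other peak so named was chosen after its values were seen. Of the 53 other pathway genes, named by rule are those with a peak of both lists at the start site and the 5 with the most peaks, and others were chosen after their values were seen. The 10 genes, the list of 53, the sequences and the rules were chosen with earlier results of these data known. Alternatives were each list alone, other distances, other start sites, joining of peaks up to 500 bp apart, a stricter overlap, whole peaks and, chosen after seeing the data, the group without Smad3 and the E-box split at Smad3 over whole peaks. The functions for joining, overlap, windows and sequence search were tested on simulated data. Versions were bedtools 2.31.1, samtools 1.23.1, pysam 0.24.0, scipy 1.17.1, pandas 2.3.3, numpy 2.4.6, matplotlib 3.10.9 and python 3.11.15.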

Additional observations from a re-analysis of the deposited data

How the results depend on the processing

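Of 68 recomputed values of the group, 56 stayed near the value reported and 12 moved, where near meant within 1.5 times for counts, distances and widths and within the Wilson interval for shares. The 36-cycle list alone gave 42 peaks in place of 68, and 11 in place of 19 inside the genes. Within 50 kb there were 45 peaks, and 2.22% held the SMAD sequence. With the 30-cycle list alone this share was 10.7%, within the Wilson interval of the 5.88% reported but over 1.5 times as high. Requiring that calls of both lists cover at least 50% of each other lowered the share in both lists from 42.6% to 30.9%. The share of all combined peaks under this rule is not given here, so 30.9% cannot be set beside the 35.4% given above. Genes with a peak at the start site rose from 1 to 3 with the start of any annotated transcript (Tgfbr2, Smad3 and Smad7), and to 3 with peaks centred within 5 kb. Over whole peaks, most of which are longer than the window of 200 bp, 33.8% held the AP-1 sequence, 35.3% the E-box and 29.4% the SMAD sequence, against 31.2%, 32.8% and 35.9% of all combined peaks. Without Smad3, 4 peaks lay inside the other genes, and 6.25% of peaks held an E-box. The cause of the other changes was not tested. Of 40 distances to single start sites, 28 stayed within 0.5 kb and 12 moved. In 6 of the 40, the nearest peak was on the other side of the start site. No paired analysis was possible because there is a single library per condition, without any test. Peaks could not be filtered at a stricter threshold without scores, and the unknown depth limits what the lack of a peak can show.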
